A study of Homo sapiens with 8 samples.

Results

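The genes described here encode the glycosyltransferases that build mucin-type and Lewis glycans, the sugar chains that cover mucins and other secreted and surface proteins of duct cells. They were chosen by symbol alone, with no measured value in the rule: the numbered FUT, GALNT, ST3GAL, ST6GAL, ST6GALNAC, B3GNT, B3GALT, B4GALT and GCNT genes and C1GALT1. The rule was set with earlier results of these data known, and it took 69 of the 58870 genes in the deposited table. RNA sequencing had been done on 8 libraries of CFPAC-1, an established line of human pancreatic ductal adenocarcinoma cells. Of these, 4 came from cells with an empty vector and 4 from cells with an ADRA2A transgene, which encodes the alpha-2A adrenergic receptor. Both groups were grown for 72 hours in serum-containing medium and received no drug. The labels did not name the promoter of the transgene, whether each line was a clone or a pool, or whether the 4 libraries of a group came from separate cultures, so the p-values measure the spread between these libraries, which may be technical.

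Mucin-type glycans start when a GALNT enzyme links N-acetylgalactosamine to serine or threonine. C1GALT1 then adds galactose to give core 1, GCNT enzymes add the branch of core 2, and B3GNT and galactosyltransferase enzymes lengthen the arms. Fucosyltransferases and sialyltransferases cap the ends, and the order of the last steps decides whether a chain carries an H, Lewis or sialyl Lewis epitope. In pancreatic cancer these enzymes are best known for the sialyl Lewis a antigen, which is used as a serum tumour marker and rests on the type 1 chain that B3GALT5 makes, and for the truncated sialyl-Tn antigen made by ST6GALNAC1.

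The DNA before the start sites of 5 members is shown because these were among the members with the largest changes described below. The first 4 rose in the ADRA2A cells and ST6GALNAC5 fell. Each sequence is the 250 bases before the RefSeq gene start on GRCh38.p14, written 5′ to 3′ along the gene's strand. The windows lie at chr21:39612690-39612939 on the plus strand for B3GALT5, chr15:59611533-59611782 on the plus strand for GCNT3, chr19:48695721-48695970 on the plus strand for FUT2, chr2:85888991-85889240 on the minus strand for ST3GAL5 and chr1:76867230-76867479 on the plus strand for ST6GALNAC5. Capitals mark matches, on either strand, to any of 6 short motifs: the TATA box TATAAA, the GC box GGGCGG, the cyclic AMP response element TGACGTCA, the HNF1 core motif GTTAAT, the HNF4 site CAAAGTCCA and the CDX site CATAAA.
B3GALT5: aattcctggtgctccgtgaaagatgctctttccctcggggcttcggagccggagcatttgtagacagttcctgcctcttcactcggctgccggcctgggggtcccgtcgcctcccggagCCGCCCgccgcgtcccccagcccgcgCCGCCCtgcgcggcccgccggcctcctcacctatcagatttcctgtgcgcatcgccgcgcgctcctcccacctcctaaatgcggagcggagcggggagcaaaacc
GCNT3: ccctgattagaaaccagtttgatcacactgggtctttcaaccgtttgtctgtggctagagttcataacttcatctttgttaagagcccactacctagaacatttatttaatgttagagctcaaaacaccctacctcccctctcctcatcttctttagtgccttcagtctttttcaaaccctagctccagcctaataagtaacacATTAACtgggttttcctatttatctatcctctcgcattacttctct
FUT2: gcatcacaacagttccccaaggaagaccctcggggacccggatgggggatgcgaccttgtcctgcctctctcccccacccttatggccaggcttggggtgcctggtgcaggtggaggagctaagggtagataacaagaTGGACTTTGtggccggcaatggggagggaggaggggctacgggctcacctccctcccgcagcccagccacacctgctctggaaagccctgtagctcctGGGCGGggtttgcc
ST3GAL5: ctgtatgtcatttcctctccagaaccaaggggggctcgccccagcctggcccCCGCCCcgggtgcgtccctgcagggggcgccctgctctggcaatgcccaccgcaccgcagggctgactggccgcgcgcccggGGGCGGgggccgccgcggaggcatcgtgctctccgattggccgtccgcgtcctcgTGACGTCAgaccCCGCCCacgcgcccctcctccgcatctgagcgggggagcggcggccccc
ST6GALNAC5: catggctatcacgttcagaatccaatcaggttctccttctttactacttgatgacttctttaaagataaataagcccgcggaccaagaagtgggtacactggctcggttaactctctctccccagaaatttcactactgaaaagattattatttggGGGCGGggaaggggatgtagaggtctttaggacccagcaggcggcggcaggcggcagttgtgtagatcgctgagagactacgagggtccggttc

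Read as letters, B3GALT5 held 2 GC boxes, GCNT3 held 1 HNF1 core motif and ST6GALNAC5 held 1 GC box. In FUT2 an HNF4 site began 112 bases before the start and a GC box 14 bases before it. In ST3GAL5 a full cyclic AMP response element began 61 bases before the start, beside 3 GC boxes. No match in these 5 windows overlapped another. RefSeq windows were found for 38 of the 52 members tested. The HNF4 site was in 1 of these 38 (FUT2) and in 0.293% of 27305 windows of all RefSeq genes. The cyclic AMP response element was likewise in 1 of the 38 (ST3GAL5), against 1.77% of all windows, and the HNF1 core motif in 3, against 6.22%. GC boxes were in 27 of the 38 and in 42.3% of all windows. The TATA box and the CDX site were in 0 of the 38, against 11.1% and 10.0% of all windows, which says only that these letters were not in these windows. The RefSeq starts of B3GALT5, GCNT3 and ST3GAL5 lie inside the longer GENCODE gene, and the table gives 1 value per gene, so the start site in use in these cells was not known. In GENCODE, the B3GALT5 and ST3GAL5 windows also overlap the first exon of an antisense lncRNA (B3GALT5-AS1 and ST3GAL5-AS1), the ST3GAL5 window ends in the first exon of minor ST3GAL5 transcripts, the GCNT3 window overlaps an exon of a GCNT3 transcript with no coding sequence, and the FUT2 and ST6GALNAC5 windows overlap no exon.

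Library totals ran from 14427040 to 17528910 estimated counts. ADRA2A had 0 counts in all 4 empty-vector libraries and 112, 142, 154 and 172 counts in ADRA2A replicates 1 to 4. Rises and falls of markers are calls at an adjusted p-value under 0.05 in the edgeR test given below. Of all genes tested, 21.6% rose and 21.1% fell by this measure. All 6 epithelial markers were tested, 2 rose and 3 fell, and they summed to between 11700 and 12300 counts-per-million (CPM, on library sizes scaled with edgeR's TMM factors) in the empty-vector libraries and between 11400 and 12500 CPM in the ADRA2A libraries. Of 10 fibroblast markers 3 were tested and 1 fell (COL1A1), so that their sum went from between 79.1 and 83.9 CPM to between 24.2 and 27.2 CPM, while COL3A1 had at most 1 count in any library. Of 6 immune markers 3 were tested and 2 rose (LYZ and CD68), with sums of 121 to 133 CPM against 199 to 212 CPM, while CD3E was at 0 in all libraries and PTPRC had at most 4 counts. Of 5 endothelial markers 2 were tested, 1 higher (PECAM1) and 1 lower (KDR), with sums between 2.05 and 3.35 CPM over all libraries and TEK at 0. PECAM1 had 11, 18, 11 and 9 counts in the empty-vector libraries and 31, 34, 45 and 44 in the ADRA2A libraries. KDR had 21, 18, 20 and 20 counts against 10, 5, 7 and 8. Each passed the filter on low counts only through the group where it was high, so these 2 calls carry no weight. The part of these shifts in the results below was not tested. In bulk RNA, fewer cells with a transcript and less of it per cell cannot be told apart.

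Of the 69 members, 52 passed the filter on low counts and entered the quasi-likelihood test of edgeR, with p-values adjusted by the Benjamini-Hochberg method over all 14785 genes tested. At an adjusted p-value under 0.05, 31 of the 52 differed between the groups, which is 59.6%, where 42.7% of all genes tested did. The changes went both ways. In the ADRA2A cells 17 members rose (32.7%, against 21.6% of all genes tested) and 14 fell (26.9%, against 21.1%). The median log2 fold change of the tested members was -0.035 beside 0.001 for all genes tested, and the median absolute log2 fold change was 0.246 beside 0.177. A log2 fold change of 0.5 or more in either direction, with an adjusted p-value under 0.05, was reached by 9 of the 52 members and by 12.0% of all genes tested. For 29 of the 52 members the libraries separated fully by group, against 39.2% of all genes tested. All 4 libraries of both groups were over the filter's cutoff for 50 of the 52, while ST6GALNAC5 and B3GNT4 passed through the empty-vector libraries, where they were high. The place of ST6GALNAC5 and B3GNT4 in these counts carries no weight. These counts describe the members and are not a test of them as a set.

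**Figure D1:**
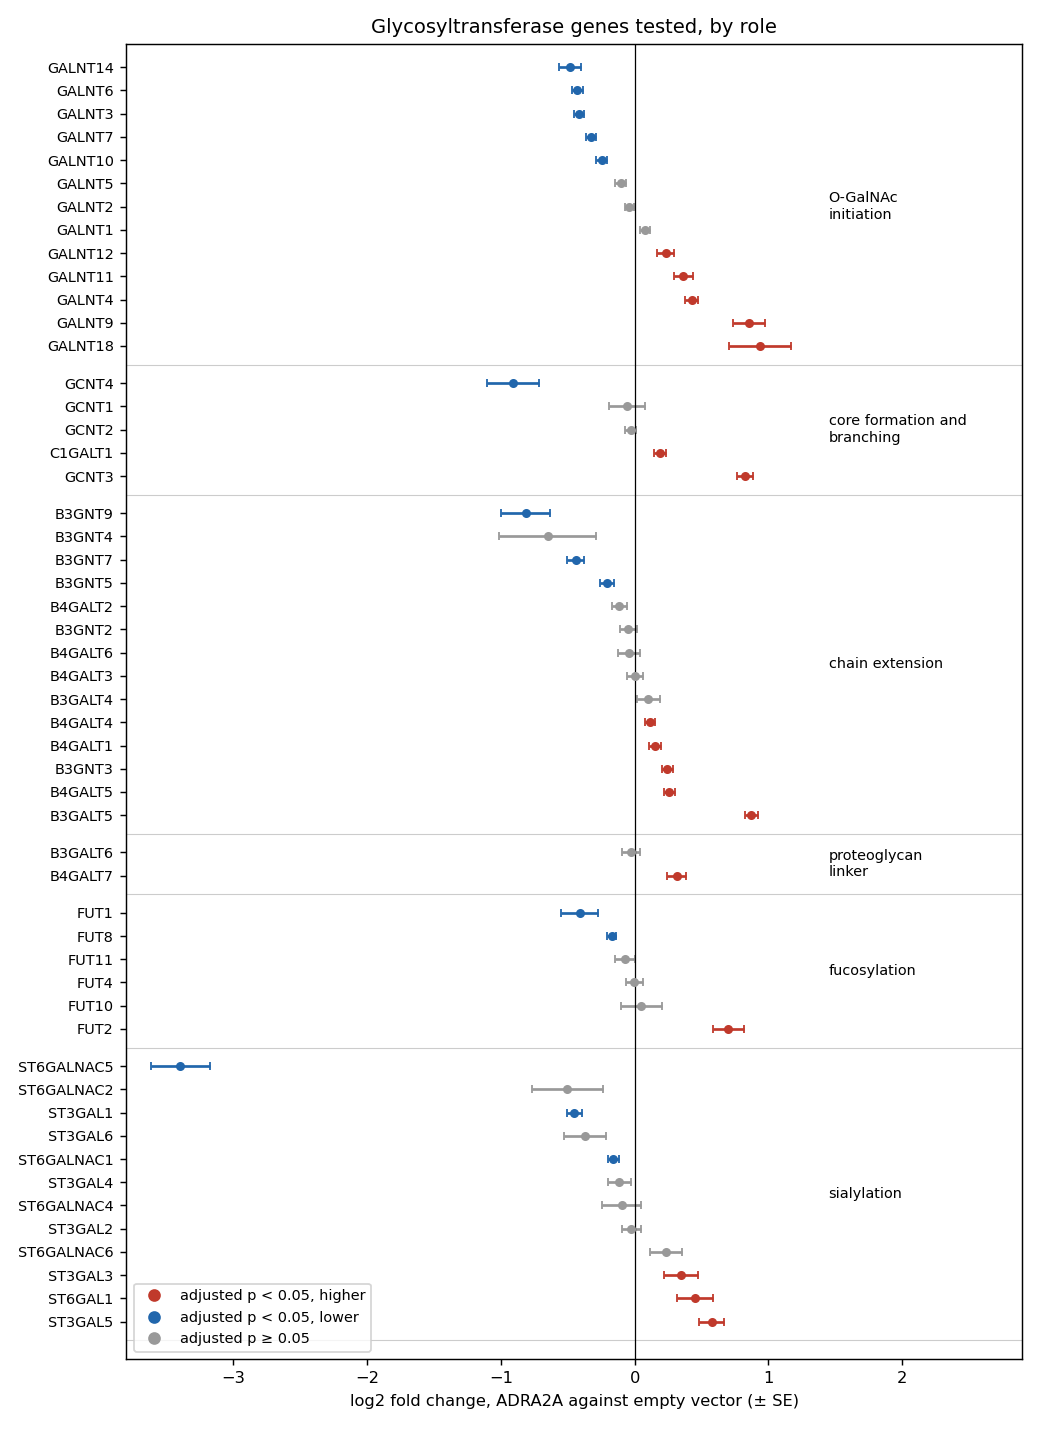
Log2 fold change (ADRA2A against empty vector, ± SE from edgeR's quasi-likelihood fit) on the horizontal axis for each of the 52 members tested, grouped by role. Red points passed an adjusted p-value of 0.05 upwards (17 members), blue points downwards (14) and grey points did not pass (21); ST6GALNAC5 lies farthest from 0.

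In the GALNT family, which starts the chains, 13 of 18 genes were tested, 5 rose, 5 fell and 3 did not pass, which is 38.5% in each direction where 21.6% of all genes tested rose and 21.1% fell. The 5 that fell were GALNT14 (log2 fold change -0.48), GALNT6 (-0.43), GALNT3 (-0.41), GALNT7 (-0.33) and GALNT10 (-0.25). They were mostly well-expressed genes. GALNT3 was at 123, 126, 120 and 124 CPM in empty-vector replicates 1 to 4 and at 94.4, 92.6, 90.9 and 92.5 CPM in ADRA2A replicates 1 to 4. Every empty-vector library lay above every ADRA2A library, and the replicates lay close together (edgeR adjusted p = 3.42e-08). GALNT7 prefers peptides that already carry a sugar and also separated fully, at 198.5 ± 6.76 CPM in the empty-vector and 158.0 ± 4.28 CPM in the ADRA2A libraries (SD, n = 4 each). For GALNT6 the means were 115.5 ± 1.81 and 85.8 ± 4.76 CPM in the same order (SD, n = 4 each).

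The 5 GALNT genes that rose were GALNT18 (log2 fold change 0.94), GALNT9 (0.86), GALNT4 (0.43), GALNT11 (0.37) and GALNT12 (0.23). GALNT9 (ENSG00000182870.13; chromosome 12, 132196372 to 132329589, minus strand) had 6.38, 7.19, 5.29 and 7.72 CPM in the empty-vector libraries and 10.45, 12.1, 12.7 and 12.7 CPM in the ADRA2A libraries. The lowest ADRA2A library was above the highest empty-vector library, and the fold change was 1.81 (log2 0.86 ± 0.12, SE; edgeR adjusted p = 8.04e-06). GALNT18 rose at a low level, from 1.47 ± 0.247 to 2.84 ± 0.498 CPM (SD, n = 4 each; edgeR adjusted p = 0.00261). GALNT4 shares 93.4% of its transcript with the read-through gene POC1B-GALNT4, so how the counts were split between this pair is uncertain. The sum of both went from 42.5 ± 2.36 to 59.1 ± 3.08 CPM (SD, n = 4 each), in the direction of GALNT4 alone.

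Levels of different genes were compared as transcripts-per-million (TPM), computed with the length of each gene's canonical GENCODE transcript. On that scale GALNT2 was the highest of the family in both groups and did not pass the test, with 192.0 ± 2.45 TPM in the empty-vector cells and 187.7 ± 4.14 TPM in the ADRA2A cells (SD, n = 4 each; edgeR adjusted p = 0.369). Its share of the summed GALNT TPM was 27.4% ± 0.471 and 28.9% ± 1.08 (SD, n = 4 each). GALNT3, GALNT6, GALNT7 and GALNT10 were among the 6 highest in the empty-vector cells, whereas GALNT9 and GALNT18 were the lowest of those tested in both groups. Summed over the family, the level was 700.3 ± 10.6 TPM for empty vector and 650.3 ± 10.3 TPM for ADRA2A (SD, n = 4 each). The lowest empty-vector sum was 694.1 TPM and the highest ADRA2A sum 664.3 TPM, so the sums did not overlap. GALNT1 (adjusted p = 0.113) and GALNT5 (0.0541) did not pass edgeR's test. GALNT1 passed it without ADRA2A replicate 4 (adjusted p = 0.0352) and GALNT5 without empty-vector replicate 2 (0.0295), with upper quartile factors (0.0236), with a mean of at least 50 counts (0.0435) and with the replicate block (0.0495).

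**Figure D2:**
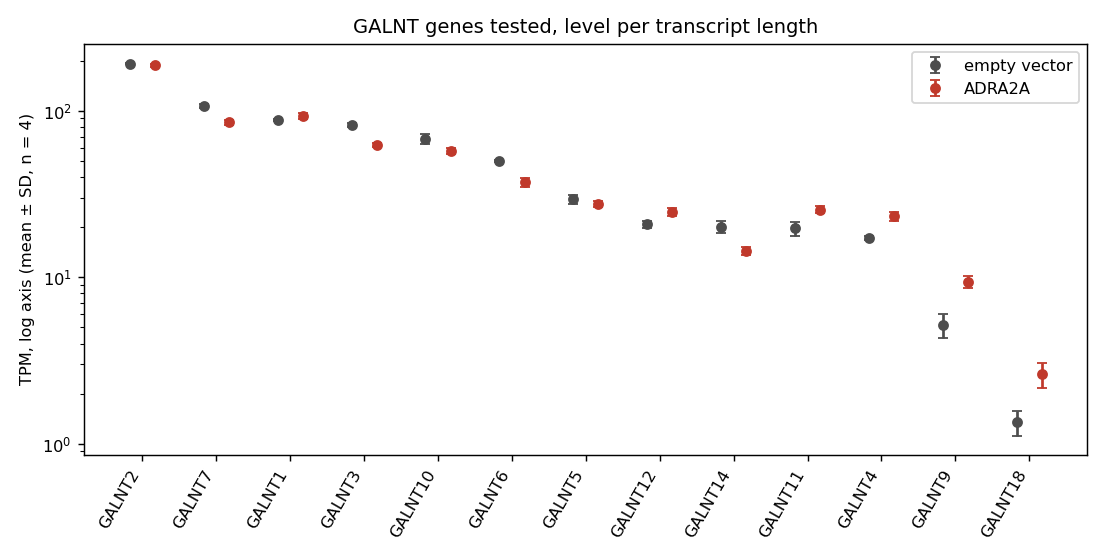
Level of the 13 GALNT genes tested in TPM on a log axis, as mean ± SD over the 4 libraries of each group, ordered by the empty-vector level. GALNT2 is highest at 192.0 and 187.7 TPM, GALNT7, GALNT3, GALNT10 and GALNT6 sit lower in the ADRA2A cells, and GALNT9 and GALNT18 at the right sit higher there.

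Among the enzymes that form and branch the core, GCNT3 had the smallest adjusted p-value. GCNT3 makes the core 2 and core 4 branches of mucins in mucus-secreting epithelia. GCNT3 (ENSG00000140297.13; chromosome 15, 59594875 to 59640239, plus strand, 3 exons) was at 25.6, 27.7, 25.0 and 26.7 CPM in the empty-vector libraries and at 46.8, 44.5, 49.4 and 45.0 CPM in the ADRA2A libraries. The groups were far apart beside the spread within each. The fold change was 1.77 (log2 0.82 ± 0.06, SE; edgeR adjusted p = 6.01e-10). Its promoter window above is the one with the HNF1 core motif.

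C1GALT1 (ENSG00000106392.10; chromosome 7, 7156934 to 7248616, plus strand), the core 1 galactosyltransferase, rose by less. It had 68.7, 66.4, 68.2 and 69.3 CPM in the empty-vector libraries and 83.0, 73.8, 76.6 and 77.8 CPM in the ADRA2A libraries. The ADRA2A libraries were all higher, by a fold change of 1.14 (log2 0.19 ± 0.05, SE; edgeR adjusted p = 0.00197). GCNT1, the widely expressed core 2 enzyme, was at 7.20, 7.60, 6.56 and 5.37 CPM against 5.54, 7.46, 6.36 and 6.33 CPM. Its groups overlapped almost wholly (log2 fold change -0.06 ± 0.14, SE; edgeR adjusted p = 0.765). GCNT4, another core 2 enzyme, fell at a low level from 4.38 ± 0.649 to 2.33 ± 0.397 CPM (SD, n = 4 each; log2 -0.91; edgeR adjusted p = 7.79e-04). GCNT2, which makes the branches of the I antigen, was at 77.2 ± 1.34 and 75.5 ± 2.80 CPM (SD, n = 4 each) and did not pass. B3GNT6, the core 3 enzyme of colon, was near the floor of the data, with 1, 1, 3 and 4 counts against 8, 2, 8 and 16 counts, and was not tested.

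B3GALT5 stood out among the chain-extending enzymes. It adds galactose in the linkage that defines the type 1 chain, the backbone of Lewis a and sialyl Lewis a. B3GALT5 (ENSG00000183778.17; chromosome 21, 39556442 to 39673137, plus strand, 4 exons) was at 195, 179, 186 and 188 CPM in the empty-vector libraries and at 362, 323, 312 and 373 CPM in the ADRA2A libraries. All ADRA2A libraries lay far above all empty-vector libraries. The fold change was 1.83 (log2 0.87 ± 0.05, SE; edgeR adjusted p = 3.00e-11), the smallest adjusted p-value of the 52 members. Per transcript length it was the highest B3GALT member, at 32.7 ± 1.51 and 60.2 ± 6.11 TPM (SD, n = 4 each). B3GALT4, which acts on gangliosides, was at 15.5 ± 0.727 and 16.7 ± 1.07 TPM and did not pass the test. B3GALT1 and B3GALT2 had at most 3 counts in any library. The canonical B3GALT5 transcript is 13097 bases long, so this TPM would be higher if a shorter transcript was in use.

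Of the other chain-extending enzymes, those that add the galactose of the type 2 chain moved little. B4GALT5, a lactosylceramide synthase, rose from 160.9 ± 2.07 to 192.6 ± 9.47 CPM (SD, n = 4 each; log2 0.26; edgeR adjusted p = 1.86e-05). B4GALT1 (log2 fold change 0.15) and B4GALT4 (0.11) rose less. B4GALT4 was the highest B4GALT member per transcript length, at 325.9 ± 3.63 and 354.5 ± 10.6 TPM (SD, n = 4 each). The call of B4GALT4 (edgeR adjusted p = 0.0145) was lost without ADRA2A replicate 2 (0.0524), without ADRA2A replicate 3 (0.0532) or without empty-vector replicate 1 (0.0511). B4GALT2, B4GALT3 and B4GALT6 did not pass, with log2 fold changes of -0.11, 0.00 and -0.04.

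The B3GNT genes, which add the N-acetylglucosamine of the repeating chain, moved in both directions: 1 rose and 3 fell of 6 tested, where 21.6% of all genes tested rose and 21.1% fell. B3GNT3, which extends core 1 and takes part in making selectin ligands, rose from 93.5 ± 2.69 to 110.8 ± 5.08 CPM (SD, n = 4 each; log2 0.24; edgeR adjusted p = 1.14e-04). B3GNT7, known from keratan sulfate, fell from 32.2 ± 1.92 to 23.7 ± 0.571 CPM (SD, n = 4 each; log2 -0.44). B3GNT5, which starts the lacto-series glycolipids, fell from 64.6 ± 2.57 to 56.0 ± 3.81 CPM (SD, n = 4 each; log2 -0.21). B3GNT9 (ENSG00000237172.4; chromosome 16, 67148104 to 67150998, minus strand) is a less studied family member. It was at 6.68, 6.65, 4.76 and 7.003 CPM in the empty-vector libraries and at 2.28, 3.56, 4.52 and 3.73 CPM in the ADRA2A libraries. The groups did not overlap, but empty-vector replicate 3 and ADRA2A replicate 3 lay close to each other. The fold was 1.76 lower in the ADRA2A cells (log2 -0.81 ± 0.18, SE; edgeR adjusted p = 0.00128), and 16.3% of its transcript overlaps exons of PHAF1 on the other strand, so part of its counts is uncertain. B3GNT4 had -0.65 ± 0.36 (log2, SE; edgeR adjusted p = 0.162, and 0.0482 without empty-vector replicate 1), and 33.6% of its transcript overlaps exons of DIABLO on the other strand. Of the 2 enzymes that build the proteoglycan linker, B4GALT7 rose (log2 0.31; edgeR adjusted p = 0.00110) and B3GALT6 did not pass (log2 -0.03).

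**Figure D3:**
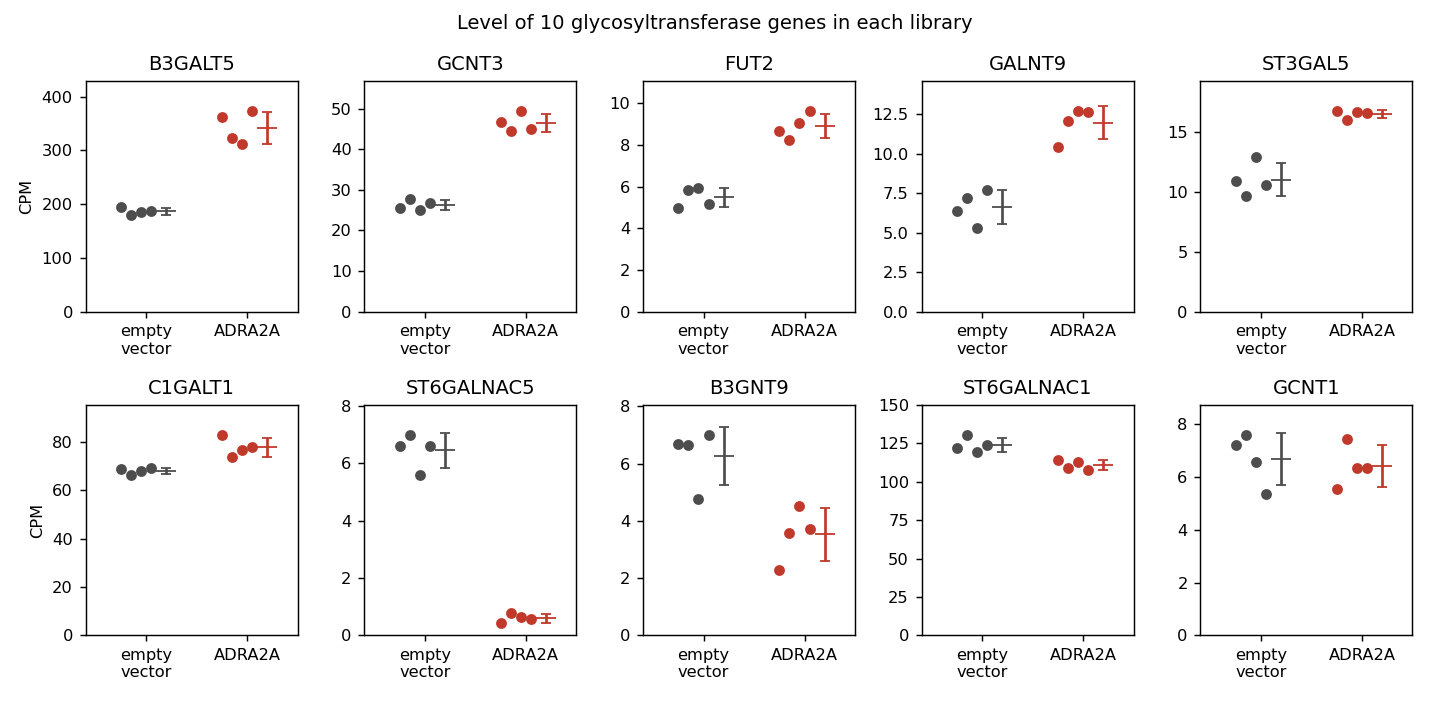
CPM in each library (points, 4 per group) with the group mean ± SD beside them, for 10 members; every vertical axis starts at 0. B3GALT5, GCNT3, FUT2, GALNT9 and ST3GAL5 sit higher in all ADRA2A libraries, ST6GALNAC5 falls to under 1 CPM, and the GCNT1 groups overlap.

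Of 11 fucosyltransferase members 6 were tested, 1 rose and 2 fell, where 21.6% of all genes tested rose and 21.1% fell. FUT2 makes the H antigen on type 1 chains and so decides secretion of blood group substance. FUT2 (ENSG00000176920.12; chromosome 19, 48695971 to 48705951, plus strand) was at 4.98, 5.84, 5.93 and 5.17 CPM in the empty-vector libraries and at 8.65, 8.25, 9.05 and 9.61 CPM in the ADRA2A libraries. The groups did not overlap, and the fold change was 1.62 (log2 0.70 ± 0.12, SE; edgeR adjusted p = 6.38e-05). Its promoter window above holds the HNF4 site. FUT1, which makes the H antigen mainly on type 2 chains and lies near FUT2 on chromosome 19, went the other way, from 6.63 ± 0.673 to 4.97 ± 0.706 CPM (SD, n = 4 each; log2 -0.41; edgeR adjusted p = 0.0231). Its lowest empty-vector library (5.635 CPM) was barely above its highest ADRA2A library (5.629 CPM). The FUT1 call was lost without ADRA2A replicate 1 (adjusted p = 0.0586) or 2 (0.0797), and without empty-vector replicate 1 (0.0632), 2 (0.0547) or 4 (0.0527).

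The Lewis enzymes themselves had few counts. FUT3, the only fucosyltransferase of the family that acts well on type 1 chains to give Lewis a, had 5.38, 6, 5 and 2 counts in the empty-vector libraries and 0, 2, 4.44 and 4 counts in the ADRA2A libraries. FUT6 had 9.62, 5, 3 and 8 counts against 8, 12, 11.93 and 9 counts. FUT5 had 1 count in all 8 libraries together. These 3 genes are related neighbours on chromosome 19, so counts may pass between them. Their sequences were not compared here. Their sum was 8 to 15 counts in the empty-vector libraries and 9 to 16.4 counts in the ADRA2A libraries. None of them passed the filter on low counts, and without the filter none passed edgeR's test (adjusted p = 0.514 for FUT3, 0.514 for FUT5 and 0.385 for FUT6). FUT4, which acts on type 2 chains, was the highest of the Lewis-type enzymes, at 42.4 ± 3.11 and 42.3 ± 2.84 CPM (SD, n = 4 each; edgeR adjusted p = 0.987). FUT7 had 1 count in all and FUT9 at most 5 in a library. FUT8 puts the core fucose on N-glycans and was the highest FUT member per transcript length, at 177.4 ± 3.53 and 158.4 ± 5.10 TPM (SD, n = 4 each). FUT8 fell with no overlap between the groups (log2 -0.17 ± 0.03, SE; edgeR adjusted p = 4.06e-04). FUT10 and FUT11 did not pass.

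ST6GALNAC5 had the log2 fold change farthest from 0 of the 52 members. ST6GALNAC5 passed the filter only through the empty-vector libraries, where it was high, so its place in this order carries no weight. It adds sialic acid to gangliosides and is known mainly from brain. ST6GALNAC5 (ENSG00000117069.15; chromosome 1, 76867480 to 77067546, plus strand) had 113, 103, 96 and 101 counts in the empty-vector libraries and 6, 12, 11 and 9 counts in the ADRA2A libraries. That is 6.62, 6.99, 5.58 and 6.61 CPM against 0.415, 0.792, 0.630 and 0.569 CPM. Every ADRA2A library was under 1 CPM. The level was 10.5-fold lower (log2 -3.40 ± 0.22, SE; edgeR adjusted p = 2.08e-10). ST3GAL5, which makes the ganglioside GM3, moved the other way. ST3GAL5 (ENSG00000115525.18; chromosome 2, 85837120 to 85905199, minus strand) was at 10.9, 9.70, 12.95 and 10.6 CPM in the empty-vector libraries and at 16.7, 16.0, 16.7 and 16.6 CPM in the ADRA2A libraries. All ADRA2A libraries were higher and lay close together, with a fold change of 1.49 (log2 0.58 ± 0.09, SE; edgeR adjusted p = 4.07e-05).

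Of the sialyltransferases of mucin cores, ST6GALNAC1 and ST3GAL1 fell. ST6GALNAC1 (ENSG00000070526.15; chromosome 17, 76624761 to 76643786, minus strand), which makes sialyl-Tn, was at 122, 131, 119 and 124 CPM in the empty-vector libraries and at 114, 109, 113 and 108 CPM in the ADRA2A libraries. The groups did not overlap, although the step was small (log2 -0.16 ± 0.04, SE; edgeR adjusted p = 0.00326). ST3GAL1, which caps core 1 and competes with core 2 branching, fell from 77.2 ± 4.50 to 56.5 ± 5.07 CPM (SD, n = 4 each; log2 -0.45; edgeR adjusted p = 4.03e-06). ST6GALNAC1 was the highest sialyltransferase per transcript length, at 114.1 ± 4.16 and 102.6 ± 3.18 TPM (SD, n = 4 each), followed by ST3GAL1 at 26.3 ± 1.77 and 19.4 ± 1.91 TPM.

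The sialyltransferases of outer chains were expressed at low levels. ST6GAL1, the main alpha2,6-sialyltransferase of N-glycans, rose from 5.55 ± 0.710 to 7.55 ± 0.972 CPM (SD, n = 4 each; log2 0.45; edgeR adjusted p = 0.0113), with an overlap between the groups. ST3GAL3, which can sialylate type 1 chains on the way to sialyl Lewis a, was at 6.38 ± 0.865 and 8.06 ± 0.820 CPM (SD, n = 4 each; log2 0.35; edgeR adjusted p = 0.0324). Its groups overlapped too, and the call of ST3GAL3 was lost with DESeq2 (adjusted p = 0.0567), without ADRA2A replicate 3 (0.119) or 4 (0.0581), and without empty-vector replicate 1 (0.0978), 3 (0.0575) or 4 (0.0799). ST3GAL4 was at 12.4 ± 0.633 and 11.5 ± 0.557 CPM (SD, n = 4 each; edgeR adjusted p = 0.317). The remaining sialyltransferases tested, whether of mucin cores or not, were ST3GAL2, ST3GAL6, ST6GALNAC2, ST6GALNAC4 and ST6GALNAC6. They did not pass either, with log2 fold changes from -0.50 to 0.24. Each of 3 among them passed without 1 library: ST3GAL6 (0.0192) and ST6GALNAC6 (0.0436) without ADRA2A replicate 4, and ST6GALNAC2 (0.0462) without empty-vector replicate 4. ST6GALNAC6 shares 99.5% of its transcript with another gene on the same strand, which had a mean of 0.52 CPM. ST6GALNAC2 shares 56.7% with another such gene, at 0.168 CPM. How the counts were split within these pairs is uncertain. ST6GAL2 was not tested, with 5, 11, 5 and 6 counts against 2, 0, 1 and 0 counts.

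The filter left out 17 members, and none of them had more than 16 counts in any library. At most 3 counts in every library were seen for 11 of the 17, and 4 (GALNT8, GALNT13, GALNT15 and GCNT7) were at 0 throughout, which allows a level of up to 3 counts, or 0.171 to 0.208 CPM depending on the library. This limit covers counting error only. The others left out were GALNT16, GALNT17, ST6GALNAC3 and B3GNT8, beside those given above.

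The supply of activated sugars was described from a list of 29 genes, of which 28 were tested, 9 rose and 3 fell. Of those tested 32.1% rose, beside 21.6% of all genes tested, and 10.7% fell, beside 21.1%. Together that is 42.9%, near the 42.7% of all genes tested. The median on the log2 scale was 0.067 (0.001 for all genes tested). GFPT1, the rate-limiting enzyme for the hexosamine sugars, rose from 133.4 ± 7.50 to 202.8 ± 2.43 CPM (SD, n = 4 each; log2 0.61; edgeR adjusted p = 3.01e-10). SLC35D1 and SLC35A3, which carry UDP-sugars into the secretory pathway, rose by log2 fold changes of 0.59 and 0.44. UAP1L1 (-0.50), GNE (-0.30), the first enzyme of sialic acid synthesis, and GMPPB (-0.20) fell. C1GALT1C1, the chaperone that C1GALT1 needs, rose by 0.16 (edgeR adjusted p = 0.0457). Of 31 further genes that cap, sulfate or trim these glycans 19 were tested, 7 rose and 3 fell. That is 36.8% higher, beside 21.6% of all genes tested, and 15.8% lower, beside 21.1%. Together 52.6% were called, beside 42.7% of all genes tested, and the median was 0.123. CHST4, a sulfotransferase of selectin ligands (0.85), SIAE, which removes acetyl groups from sialic acid (0.83), and FUCA1, the lysosomal fucosidase (0.68), had the highest values. CHST9 (-0.59), B4GALNT3 (-0.31) and POFUT1 (-0.15) had the lowest.

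Of 20 carriers and readers of the glycans (mucins, other glycoproteins, selectins and galectins) 17 were tested, 14 rose (82.4%, beside 21.6% of all genes tested) and 1 fell (5.88%, beside 21.1%), and the median was 0.471. The highest were MUC13 (2.59), LGALS4 (2.29) and MUC5B (1.57). LGALS4 had 7, 3, 0 and 2 counts in the empty-vector libraries and 16, 17, 14 and 12 counts in the ADRA2A libraries, and passed the filter only through the ADRA2A libraries, where it was high, so its place in this count and order carries no weight. MUC1, the main membrane mucin of duct cells, rose from 278.6 ± 11.9 to 483.0 ± 24.7 CPM (SD, n = 4 each; log2 0.79; edgeR adjusted p = 4.76e-12). The lowest were LGALS1, which encodes galectin-1 and was the gene that fell (-0.90), and then LGALS8 (0.13) and MUC4 (0.33), which rose. The groups of MUC4 overlapped, at 87.4 ± 9.76 CPM for empty vector and 109.7 ± 24.2 CPM for ADRA2A (SD, n = 4 each). CD44 (0.02) and MUC16 (0.36, edgeR adjusted p = 0.0507) did not pass. The list of carriers and readers was chosen with earlier results of these data known.

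Each member was also set beside the genes around it on its chromosome. For each member the median log2 fold change was taken over the other tested genes within 5 Mb on either side. These medians lay between -0.202 and 0.220 for the 52 members. Of the 31 members that passed the test, 16 had neighbours with a median in their own direction, and 10 had neighbours with an absolute median of at least 0.1. The 63 neighbours of B3GALT5 had a median of 0.032, the 56 of GCNT3 0.072, the 230 of FUT2 -0.054 and the 31 of GALNT9 -0.024, all small beside the change of the member itself. The 21 neighbours of ST6GALNAC5 had a median of 0.152, against its own direction. In 6 called members the neighbours lay in the member's own direction with an absolute median of at least 0.1. For B4GALT4 their median (0.152) was larger than its own log2 fold change (0.11). The others were ST6GAL1 (0.220 over 54 neighbours, 24 of them higher and 0 lower), B4GALT7 (0.153), ST3GAL3 (0.143), ST3GAL5 (0.141) and GALNT4 (0.113). The median near ST6GALNAC1 was -0.091, beside its own -0.16. The part of the neighbourhood in these changes was not tested. The counts by neighbours describe the members only, with no such share for all genes called beside them.

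**Figure D4:**
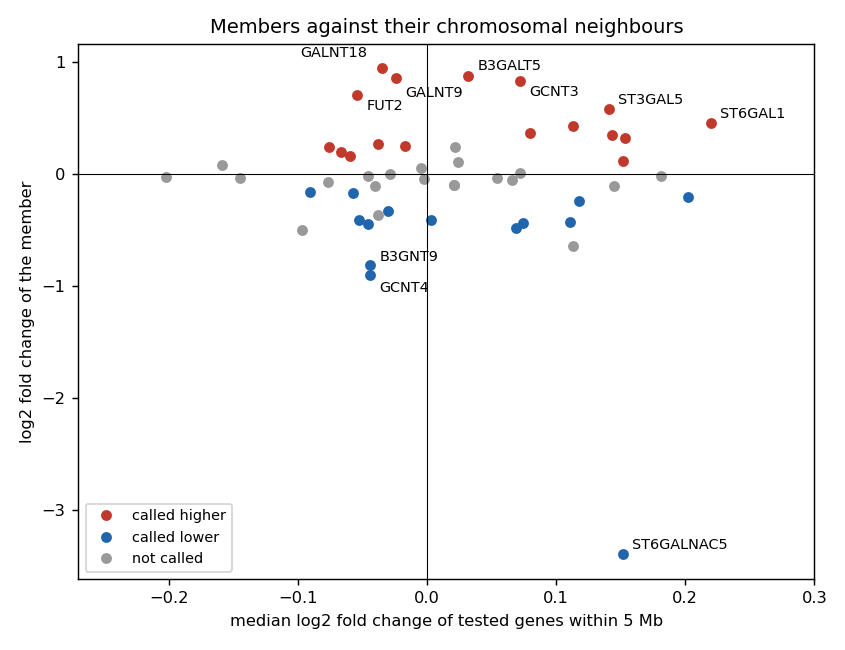
Log2 fold change of each of the 52 members (vertical axis) against the median log2 fold change of the other tested genes within 5 Mb (horizontal axis), coloured by the member's call. The neighbours span -0.202 to 0.220, and ST6GALNAC5 lies at the bottom beside neighbours with a median of 0.152.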

How the data were processed

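The deposited table held RSEM estimated counts per gene for 8 libraries, which the authors had not scaled between libraries. The submitters' processing notes name cutadapt, STAR, RSEM, DESeq2 and hg38. Versions, the annotation release and the use of strand were not given in the sources used here. All columns were matched to samples by the name in the sample title, which left 0 columns unassigned. Estimated counts were rounded, filtered with edgeR's filterByExpr (14785 of 58870 genes kept) and given TMM scaling factors. The groups were compared with edgeR 4.0.16 (glmQLFit and glmQLFTest) in R 4.3.3, with Benjamini-Hochberg adjustment over all genes tested. The fits were tried on simulated data in which far fewer genes changed than were called here. That trial cannot show how they behave with as many changes as in these data. The standard error is the absolute log2 fold change divided by the square root of F. Positions and lengths came from GENCODE release 44 on GRCh38, matched by Ensembl identifier (69 members matched), and promoters from RefSeq on GRCh38.p14.

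Values per library were given for the 7 members that passed the test with a log2 fold change of 0.5 or more in either direction and a mean of 5 CPM or more in the group where they were higher, and for B3GALT5, FUT2, FUT3, FUT5, FUT6, ST6GALNAC1, C1GALT1, GCNT1, GCNT3 and B3GNT6 whatever their result. GALNT3 was added after its values were seen. For each list of partners, the 3 highest and 3 lowest log2 fold changes that passed were named. C1GALT1C1, MUC1, CD44 and MUC16 were also added after their values were seen. The members, lists and motifs were chosen with earlier results of these data known. Alternatives were DESeq2 1.42.0, limma voom 3.58.1, RLE and upper quartile factors, no filter beyond 1 count, a mean of at least 50 counts, the replicate number as a block, each library left out in turn, and windows of 2 and 10 Mb. Libraries of a group differed by more than sampling noise in all 12 pairs (chi-square per degree of freedom 2.12 to 4.56 over genes).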

Additional observations from a re-analysis of the deposited data

Results flagged for a closer look

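A library that stood apart from the other 3 of its group was looked for by Dixon's test at the 95% level in the 10 tested members with values per library, and chance gives about 1 in 20 groups. B3GNT9 was at 4.76 CPM in empty-vector replicate 3, where the other empty-vector libraries lay between 6.65 and 7.003 CPM. Leaving that library out gave a log2 fold change of B3GNT9 of -0.93, against -0.81 with all libraries. ST3GAL5 was at 16.0 CPM in ADRA2A replicate 2, where the other ADRA2A libraries lay between 16.6 and 16.7 CPM, so the gap was small in absolute terms.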

How the results depend on the processing

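The counts of 17 members higher and 14 lower stayed within 15 to 18 and 13 to 15 under the 15 other settings, and 6314 genes called in all became 5703 to 6042 when each library was left out in turn and 5823 to 6550 under the other settings. Of the 31 members called, 28 kept their call under all settings that could be fitted, 3 (B4GALT4, FUT1 and ST3GAL3) lost it under at least 1, and 0 changed direction. A further 6 of the 52 gained a call under at least 1 setting. Without the filter on low counts, B3GNT6 was higher (edgeR adjusted p = 0.0241) and ST6GAL2 lower (0.00617), both from the few counts given above. With the replicate block, 17 members were higher, 15 lower and 6400 genes were called in all. GALNT5 was the member gained (adjusted p = 0.0495). Samples with the same number did not deviate together (correlations from -0.042 to 0.070), so the numbers were not treated as pairs. The median of the neighbours of GALNT9 changed sign with a window of 10 Mb (0.0239, from -0.0242 with 5 Mb), that of GCNT1 with 2 Mb (-0.0841, from 0.0661) and that of GCNT3 with 2 Mb (-0.013, from 0.0724). The median near B3GALT5 was 0.146 with 2 Mb, in its own direction. For the members with 16 counts or fewer in every library, depth limits any statement.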
